A study of Homo sapiens with 23 samples.

Results

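Untreated cells of 2 single-cell clones of the prostate cancer line PC-3, H6 and I4, were compared gene by gene. The members are the 11 libraries grown without doxycycline, of 23 libraries in the series. They form 4 groups, one for each clone in each of 2 experiments, called N and B. PC-3 is an established human line that grew from a bone metastasis of prostate cancer. Both clones carry a lentiviral TetOne construct in which doxycycline switches on the cDNA of PARG, joined to the fluorescent protein mClover3 by a cleavable link. PARG is the enzyme that takes poly(ADP-ribose) chains off proteins. All groups compared here carry that construct and received 0 ng/ml doxycycline for 72 h in RPMI medium. Experiment N used passage 5 cells, and Novogene made its libraries with an NEB kit that keeps both strands. Experiment B used passage 7 cells, and QB3 made its libraries with a strand-specific KAPA kit. Each group has 3 libraries, 1 per culture well, except untreated H6 in experiment B, which has 2. Each line is 1 clone, so what is compared is these clones, and wells of a clone are repeat cultures of the same cells.

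Cancer cell lines are mixtures of related cells that differ in chromosome content, in DNA methylation and in stable expression states. Growing a line from a single cell fixes one of those states, and so 2 clones of one parent can differ before any treatment is given. In prostate cancer, PC-3 stands for the androgen-independent form and is known for strong secretion of proteases and inflammatory signals.

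The authors' deposited table gives no value for a single library. For each comparison of doxycycline with no doxycycline it holds the higher of the 2 group means and a signed fold change, from which the untreated group mean was taken. Levels are on the RPKM scale, which divides a gene's reads by exon length and by the reads of the library. Of 21463 genes, 10756 had a level of at least 1 RPKM, averaged over the 4 comparisons. For each of these, the difference H6 minus I4 was taken on log2(RPKM + 0.1), which understates differences in genes of very low level. With 1 mean per group no test was possible. A gene was called different when H6 stood at least 2-fold (1 on the log2 scale) above or below I4 in both experiments, which share no library.

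The levels of genes carried by a single read gave an estimate of depth: 33.7 to 43.2 M reads per library for experiment N and 19.8 to 24.6 M for I4 in experiment B, if each listed mean averages 3 libraries. For H6 in experiment B the values give 22.3 to 26.5 M if 3 libraries were averaged and 33.4 to 39.7 M if 2 were, and which of these holds for the untreated libraries cannot be told. Of 6 genes expected low or lost in PC-3, 0 reached the level minimum, and 8 of 8 genes expected present did. The prostate antigens KLK2 and KLK3 were at or below 0.00111 RPKM in all 4 groups, and CTNNA1, the alpha-catenin gene that PC-3 has lost, was at most 0.0227 RPKM. Vimentin (VIM) was at 256 to 336 RPKM, keratin 18 (KRT18) at 84.5 to 99.1 RPKM and urokinase (PLAU) at 491 to 817 RPKM. Of 12 blood cell markers only LCP1 reached the level minimum of 1 RPKM, and it did so by far, at up to 83.4 RPKM. PTPRC, the pan-leukocyte marker, was at most 0.0334 RPKM. The transgene's own gene, PARG, was at 21.6 RPKM in I4 and 26.1 RPKM in H6 in experiment N, and at 26.9 and 27.4 RPKM in experiment B. Its clone difference was 0.27 in N and 0.03 in B on the log2 scale. These reads do not separate the construct from the cell's own gene.

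H6 stood at least 2-fold above I4 in 89 genes (0.827% of those compared) and at least 2-fold below it in 39 (0.363%). At 4-fold the counts were 12 and 7. Of the 89 higher genes, 87 code for proteins, as do all 39 lower ones. In 11 genes H6 reached 1 RPKM in both experiments while I4 stayed under 0.5 RPKM, and in 6 genes the reverse held. Both H6 levels exceeded both I4 levels in 89 of the 89 higher genes, against 17.6% of all genes compared. Both H6 levels lay under both I4 levels in 38 of the 39 lower genes, against 14.5% of all genes. The exception is AC011511.4, a row named by its clone, which was at 0.108 RPKM in I4 and 0.00177 RPKM in H6 in experiment N but at 3.50 and 1.06 RPKM in experiment B. These shares are fixed in large part by the 2-fold rule and describe the levels only.

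The experiments gave nearly the same differences. Across the 10756 genes the differences in N and B had a Pearson correlation of 0.87 and a Spearman correlation of 0.80, a description over genes, which are not independent replicates. The sign was the same in 79.5% of genes. The median absolute gap between the experiments was 0.11 on the log2 scale, and it was under 0.31 in 95% of genes. The median absolute difference between the clones was 0.15 in N and 0.18 in B, so for a typical gene the clone difference is hardly larger than the gap between experiments. Among called genes, which were chosen for passing in both experiments, the standard deviation of a gene's 2 differences had a median of 0.08 and reached 0.76 for higher genes, and had a median of 0.10 and reached 0.60 for lower genes. Experiment N alone gave 107 higher genes, of which 83.2% passed in B too. Experiment B alone gave 117, of which 76.1% passed in N. For lower genes the counts were 54 in N, with 72.2% passing in B, and 51 in B, with 76.5% passing in N.

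**Figure D1:**
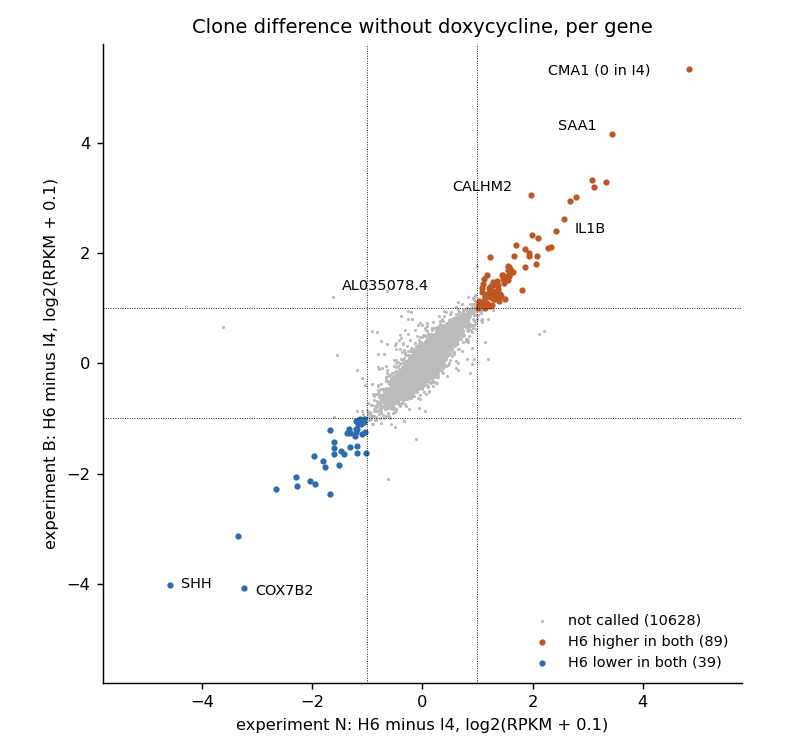
Each point is 1 of 10756 genes. The horizontal axis is H6 minus I4 on log2(RPKM + 0.1) in experiment N and the vertical axis the same in experiment B; dotted lines mark 2-fold. The 89 higher and 39 lower genes run along the diagonal from SHH to SAA1, and CMA1, listed at 0 in I4, is placed by the added 0.1 RPKM alone.

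Near the rule's edge, CXCL5 lay just inside with differences of 1.14 in N and 1.01 in B, and FOXL1 just inside on the lower side with -1.06 and -1.02. Just outside lay RBP7, with 1.12 and 0.99, and CLIC3, with 0.997 and 1.77. Calls were made at all levels, but the share of genes called was largest at 1 to 5 RPKM. The level is averaged over both clones, so a gene nearly absent in 1 clone can reach the minimum through the other alone. Level and clone difference are therefore not independent. There were 3515 genes of 1 to 5 RPKM, 4451 of 5 to 20 RPKM and 2790 above that. Of the higher genes 56, 22 and 11 lay in these ranges. For lower genes the numbers were 28, 6 and 5.

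By count, proteases and their inhibitors held more genes higher in H6 than any of the other lists. The lists differ in size, and by share they were not first. Of genes at the level minimum, 2 of 7 complement genes and 4 of 17 cytokines and chemokines were higher, against 0.827% of all genes. The lists were chosen with earlier results of these data known. Some members counted, such as C1S and SERPINB3, were under 1 RPKM in untreated I4 in both experiments. Shares of lists therefore describe the members only and are no test. Plasminogen activators cut plasminogen into plasmin, a matrix-dissolving protease, and serpins trap such proteases. PLAT, the tissue plasminogen activator, was at 9.74 and 27 RPKM in I4 and H6 in experiment N, and at 8.09 and 25 RPKM in experiment B, with differences of 1.46 and 1.61. The partner protease urokinase, PLAU, and its receptor PLAUR did not reach 2-fold: PLAUR was at 16 and 24.6 RPKM in N and 18.6 and 29.4 RPKM in B. MMP14, the membrane-bound collagenase that activates other matrix proteases, was at 85.7 and 195 RPKM in N and 69.3 and 162 RPKM in B. Among the serpins of the chromosome 18 cluster, SERPINB7 was at 27.2 and 73.4 RPKM in N and 38.3 and 89.1 RPKM in B, and SERPINB3 was at 0.320 and 1.51 RPKM in N and 0.504 and 2.24 RPKM in B. SERPINB3 overlaps SERPINB11 on the other strand, and experiment N's libraries cannot tell those apart. In all, 5 of 23 list members at the level minimum were higher and 0 lower, with a median difference of 0.35 in N and 0.39 in B, against 0.03 and 0.04 for all genes. Members on the other side exist: SERPINB5 (maspin) was at 11.6 and 7.91 RPKM in N and 14.8 and 9.47 RPKM in B, short of 2-fold.

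Among inflammatory cytokines and chemokines 4 were higher in H6, while others lay the other way. IL1B, the secreted fever cytokine interleukin 1 beta (chr2:112829751-112836903), was at 36.3 RPKM in I4 and 217 RPKM in H6 in experiment N, and at 55.3 and 342 RPKM in experiment B. Its differences were 2.57 and 2.63. IL6, which signals through STAT3, was at 1.57 and 5.95 RPKM in N and at 2.40 and 8.30 RPKM in B, with an overlapping transcript of STEAP1B on the other strand. LIF, a cytokine of the same receptor family, was at 24.3 and 49.5 RPKM in N and at 20.5 and 44.9 RPKM in B. CXCL5, a neutrophil-attracting chemokine, was at 53.7 and 118 RPKM in N and at 41.8 and 84.3 RPKM in B. In each of these genes both H6 values lay above both I4 values. Of 17 cytokines and chemokines at the level minimum these 4 were higher and 0 lower, with medians of 0.26 and 0.28. The neutrophil chemokines CXCL8 and CXCL2 lay the other way without reaching 2-fold: CXCL8 was at 48.1 and 36.6 RPKM in N and 58.9 and 41.5 RPKM in B, with differences of -0.39 and -0.50. CXCL2 was at 13.6 and 8.90 RPKM in N and 13 and 8.78 RPKM in B. The 18 NF-kB subunits and feedback genes at the level minimum held no call, with medians of -0.07 and 0.03, and among 32 interferon-stimulated genes only IFI44L was called, lower in H6. IL37, an anti-inflammatory relative of IL1B from the same gene cluster, was at 0.927 and 3.64 RPKM in N and at 1.63 and 7.25 RPKM in B.

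Acute-phase and complement genes included some of the largest ratios. SAA1, the acute-phase serum amyloid A protein, was at 0.198 RPKM in I4 and 3.14 RPKM in H6 in experiment N, and at 0.0610 and 2.79 RPKM in experiment B. The I4 value in B rests on about 3 to 4 reads, so the size of its ratio is poorly known. C1S, a protease of the first complement component, was at 0.443 and 3.38 RPKM in N and at 0.391 and 3.71 RPKM in B. C1R, its partner protease, which lies 9.17 kb from it on chromosome 12, was at 4.72 and 10.4 RPKM in N and at 4.92 and 10.9 RPKM in B. The pair was higher to unequal degrees, with differences of 2.68 and 2.96 for C1S and 1.12 and 1.13 for C1R. Of 7 complement genes at the level minimum these 2 were higher and 0 lower.

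Other surface and secreted proteins were among the 20 largest differences. TENM2, a teneurin that neurons use to find synaptic partners, was at 0.396 RPKM in I4 and 4.20 RPKM in H6 in experiment N and at 0.614 and 6.46 RPKM in B. RTN4RL2, a relative of the Nogo receptor, was at 1.83 and 16.3 RPKM in N and at 0.327 and 4.22 RPKM in B, and AP002893.1 overlaps it on the other strand. In both genes the ratio was similar in the 2 experiments although the levels were not. HEPHL1, a copper-dependent iron oxidase, was at 2.83 and 15.6 RPKM in N and at 4.21 and 22.6 RPKM in B. SPOCK1, a matrix proteoglycan, was at 2.73 and 14.2 RPKM in N and at 3.03 and 13.5 RPKM in B. CREB3L1, a membrane-bound transcription factor of the secretory pathway, was at 0.433 and 3.58 RPKM in N and at 0.366 and 3.70 RPKM in B. KRTAP2-3, MUC5B, CALHM2, POF1B and XK also rank among the 20, as does IGF2_1, a row whose name matches no annotated gene and which is not read as IGF2. The smaller of the 2 differences in these 6 rows ranged from 1.80 in XK to 2.11 in IGF2_1. CALHM2 had the widest gap between experiments, with 1.98 in N and 3.06 in B.

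CMA1, the gene of the mast cell protease chymase, was the nearest to an on-off difference. It was listed at 0 in I4 in both experiments and at 2.77 RPKM in H6 in N and 3.97 RPKM in B, so no ratio can be given. On the lower side, SHH, the secreted morphogen Sonic hedgehog (ENSG00000164690, chr7:155799986-155812273), was at 7.24 RPKM in I4 and 0.207 RPKM in H6 in experiment N, and at 4.56 and 0.187 RPKM in experiment B. Its differences were -4.58 and -4.02, and the H6 values rest on about 105 to 135 reads in N and 63 to 75 in B. The 250 bases before the RefSeq start of each gene (GRCh38.p14, minus strand) are shown because these are the extremes on either side. CMA1's stretch is at chr14:24508266-24508515 and that of SHH at chr7:155812464-155812713. Capitals mark each CG pair, the dinucleotide at which vertebrate DNA is methylated.
CMA1: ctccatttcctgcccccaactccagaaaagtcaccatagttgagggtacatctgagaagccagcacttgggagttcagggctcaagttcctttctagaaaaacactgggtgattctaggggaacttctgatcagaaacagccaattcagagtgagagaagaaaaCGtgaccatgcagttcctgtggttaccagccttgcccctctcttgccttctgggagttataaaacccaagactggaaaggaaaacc
SHH: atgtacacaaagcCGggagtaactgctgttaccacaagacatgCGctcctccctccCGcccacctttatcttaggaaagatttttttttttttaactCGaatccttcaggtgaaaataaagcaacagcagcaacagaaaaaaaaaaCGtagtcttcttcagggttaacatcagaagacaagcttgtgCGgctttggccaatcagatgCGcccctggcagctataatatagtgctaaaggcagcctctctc
CMA1's stretch holds 1 such pair and that of SHH 7. Over the 300 bases around the start, 99.7% of the 8944 genes with a RefSeq promoter hold at least 1 CG, the median is 27, and 6.43% hold 7 or fewer. Methylation was not measured, and a count of CG pairs says nothing about the state of either promoter.

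Hedgehog and BMP signalling are classic morphogen pathways: BMP ligands bind serine kinase receptors and act through SMAD proteins, and antagonists such as noggin and follistatin bind the ligands outside the cell. BMP2 was at 2.17 RPKM in I4 and 0.486 RPKM in H6 in experiment N and at 1.73 and 0.302 RPKM in B. NOG, which codes for noggin, was at 15.7 and 5.10 RPKM in N and at 5.28 and 1.63 RPKM in B. NOG thus was lower in H6 together with a ligand it binds, although its level in I4 differed about as much between the experiments. FST, which codes for follistatin, an activin antagonist, went the other way, at 40.3 and 90.7 RPKM in N and at 45.9 and 98.6 RPKM in B. LTBP2, a matrix protein of the latent TGF-beta binding family, was at 1.79 and 4.40 RPKM in N and at 1.16 and 3.27 RPKM in B. Over 30 members of the TGF-beta, activin and BMP list at the level minimum, 3 were higher, FST and LTBP2 among them, and 2 lower (BMP2 and NOG). The list's median was -0.03 in N and 0.01 in B, near that of all genes.

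**Figure D2:**
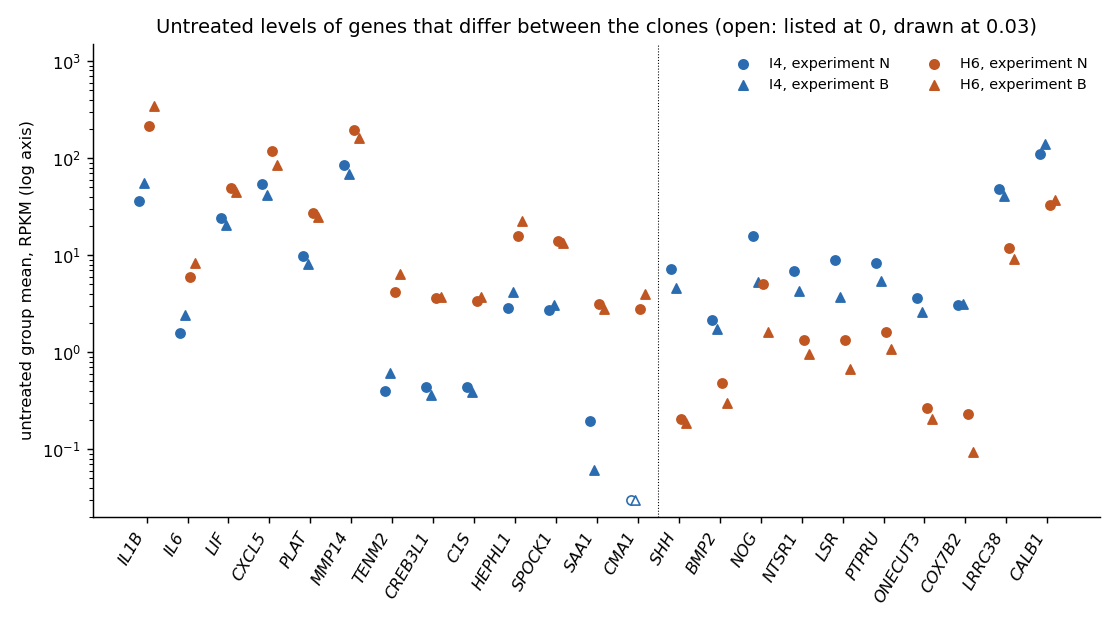
Untreated group means in RPKM on a log axis for 13 genes higher and 10 genes lower in H6, with circles for experiment N and triangles for B; no error bar can be drawn, since the table holds only means. In each gene both H6 symbols lie on the same side of both I4 symbols. For NOG the gap is narrow, with 5.10 RPKM in H6 in N beside 5.28 RPKM in I4 in B.

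The other large differences on the lower side were in receptors, a junction protein, a transcription factor and a calcium buffer. NTSR1, the receptor of the gut and brain peptide neurotensin, was at 6.90 RPKM in I4 and 1.33 RPKM in H6 in experiment N and at 4.31 and 0.959 RPKM in B. PTPRU, a receptor-type tyrosine phosphatase, was at 8.30 and 1.62 RPKM in N and at 5.47 and 1.09 RPKM in B. LSR, a component of tricellular junctions, was at 8.89 and 1.32 RPKM in N and at 3.66 and 0.674 RPKM in B. LSR was not a member of the epithelial junction list, in which 0 of 17 members at the level minimum were called. That list's median was -0.01 in N and 0.15 in B. ONECUT3, a homeobox transcription factor, was at 3.65 and 0.269 RPKM in N and at 2.58 and 0.205 RPKM in B. COX7B2, a testis-enriched relative of a cytochrome oxidase subunit, was at 3.04 and 0.234 RPKM in N and at 3.17 and 0.0931 RPKM in B, where the H6 value rests on about 5 to 6 reads. CALB1, the calcium-binding protein calbindin, was the most abundant of the 20 largest, at 112 and 32.6 RPKM in N and at 138 and 37.2 RPKM in B. LRRC38, an accessory subunit of potassium channels, was at 48.5 and 11.7 RPKM in N and at 40.5 and 9.16 RPKM in B. CPZ, LYPD1, ZNF439, TRABD2B, NUDT11 and ALDH3A1 also rank among the 20, with the smaller of their differences between -1.77 in CPZ and -1.31 in ALDH3A1.

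Among receptors and guidance molecules the calls were few and went both ways. AREG, a ligand of the EGF receptor, was lower (9.11 and 3.84 RPKM in N, 11 and 4.38 RPKM in B). PDGFB, a ligand of the PDGF receptors, was higher (3.34 and 8.26 RPKM in N, 2.30 and 6.30 RPKM in B). They were the only calls among 30 receptor tyrosine kinases and ligands. Of 14 ephrins and Eph receptors EPHA7 was higher, with differences of 1.34 and 1.31, and EPHB3 lower, with -1.60 and -1.43. Of 33 G protein-coupled receptors S1PR3 was higher (1.13 and 1.08) and NTSR1 lower. Of 22 semaphorin, plexin, slit and netrin genes only PLXNA2 was called, lower in H6 (-1.14 and -1.03). PLXNA4, which was not a member of that list, was also called lower and ranks among the 20 largest, with -1.48 and -1.60. In the Wnt list 0 of 21 were called in both experiments, although WNT7A came close, at 14.3 and 6.85 RPKM in N and 10.1 and 5.11 RPKM in B. Of 11 Notch genes only HES1, a transcriptional repressor that Notch switches on, was called, at 6.72 and 14.4 RPKM in N and 5.74 and 12.1 RPKM in B.

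The lists of integrins, matrix glycoproteins and mesenchymal genes held few calls, all of them higher in H6. ITGB2, the beta subunit of leukocyte integrins, was at 2.80 RPKM in I4 and 8.42 RPKM in H6 in experiment N and at 2.15 and 7.21 RPKM in B. ITGA1, a collagen-binding integrin subunit, was at 0.925 and 2.79 RPKM in N and 1.49 and 3.48 RPKM in B. Of 12 integrins these 2 were higher and 0 lower. ITGA6, which binds laminin, was at 63.7 and 37.7 RPKM in N and 73.8 and 40.4 RPKM in B, so integrins did not share a direction. THBS1, the matrix protein thrombospondin 1, was at 8.68 and 18.1 RPKM in N and 12.1 and 25.9 RPKM in B. EFEMP1, a fibulin, was at 0.303 and 1.21 RPKM in N and 0.298 and 1.67 RPKM in B. They were the calls among 25 laminins and other matrix glycoproteins, whose median was -0.14 in N and 0.02 in B. CYR61, a secreted protein switched on by YAP, was at 87.5 and 215 RPKM in N and 84.5 and 204 RPKM in B, the only call among 16 mesenchymal genes. No collagen of 14 was called, but the list's median was 0.25 in N and 0.36 in B, with 10 of 14 above 0 in both. COL1A1 stood at the edge, at 9.47 and 17.7 RPKM in N and 6.23 and 12.6 RPKM in B. COL1A1 is also 1 of 10 fibroblast markers and the only one of them at the level minimum. The other 9 summed to 0.870 RPKM in I4 and 1.20 RPKM in H6 in N, and to 1.02 and 1.32 RPKM in B. The part of other cells in these differences was not tested.

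Genes of cholesterol and fatty acid synthesis differed little each but mostly in one direction. SREBP transcription factors switch this pathway on when sterol is low, and INSIG1 holds them back in the endoplasmic reticulum. INSIG1 was at 5.04 RPKM in I4 and 13.4 RPKM in H6 in experiment N and at 5.06 and 11.2 RPKM in B, the only call among 31 members. SCD, the enzyme that desaturates fatty acids, was at 33.7 and 59.9 RPKM in N and 36.3 and 67.3 RPKM in B. Of the 31 members 27 were above 0 in both experiments and 2 below, against 45.2% above and 34.3% below among all genes. The list's median was 0.27 in N and 0.36 in B. CPT1A, which carries fatty acids into mitochondria to be burnt, lay on the other side, at 13.5 and 6.13 RPKM in N and 15.6 and 7.67 RPKM in B. ABCA1, which exports cholesterol, was higher, at 0.525 and 1.36 RPKM in N and 0.739 and 1.93 RPKM in B.

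**Figure D3:**
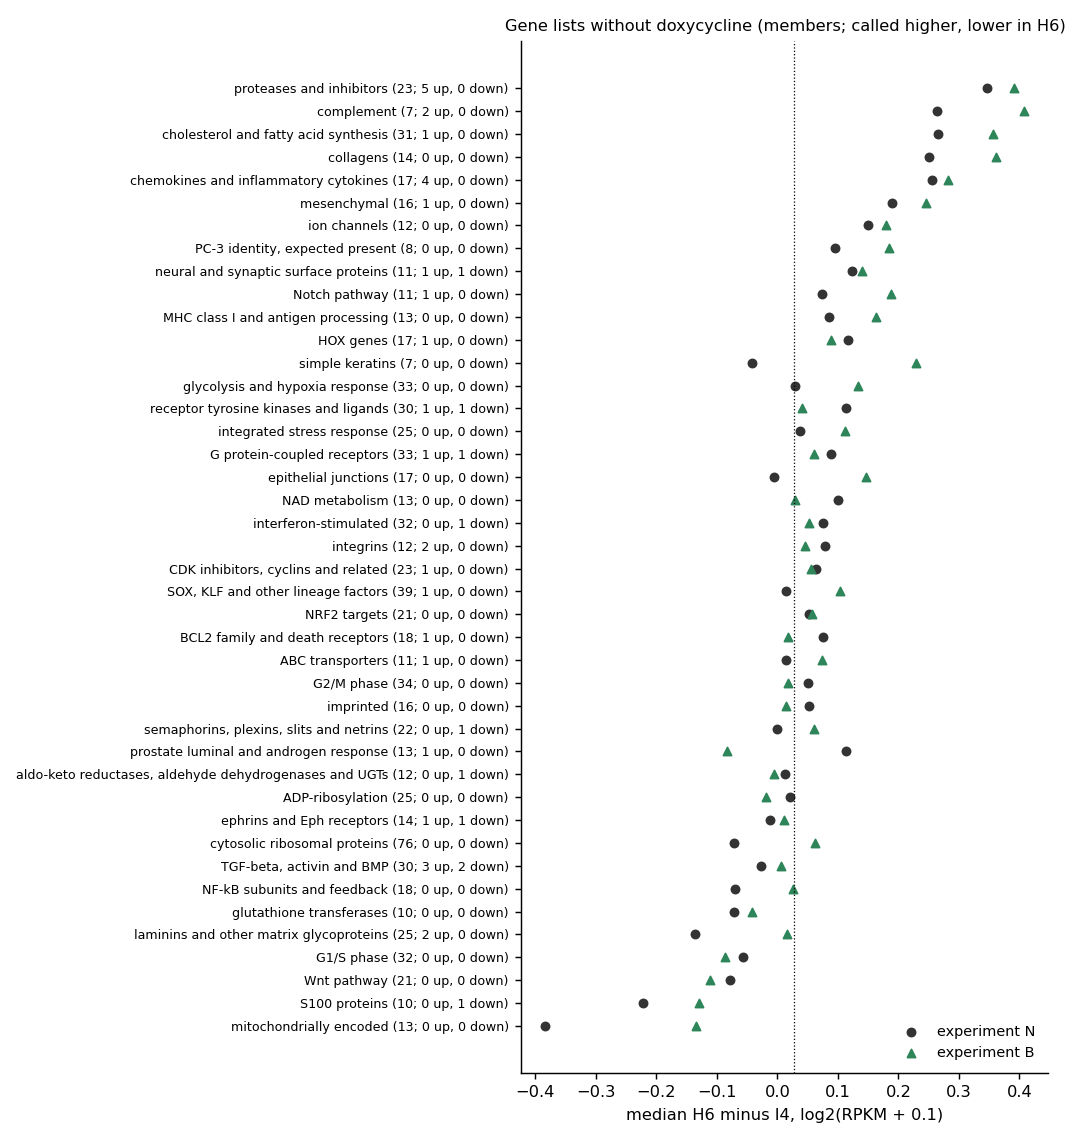
Median difference H6 minus I4 on log2(RPKM + 0.1) for each gene list with at least 7 members at the level minimum, in experiment N (circles) and B (triangles); brackets give the members and the calls in each direction. The dotted line is the median of all genes in N, 0.03. Proteases and inhibitors lie at the top, and genes encoded in mitochondrial DNA at the bottom with -0.38 in N and -0.13 in B.

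Of 45 lists with at least 3 members at the level minimum, 22 held no call, and with 1.19% of all genes called most lists of this size would hold few or none. Lists without a call include 32 genes of the G1/S phase (medians -0.06 and -0.09), 34 of the G2/M phase (0.05 and 0.02) and 76 ribosomal proteins (-0.07 and 0.06). Of 23 genes in a list of cyclins, CDK inhibitors and stress-induced brakes on the cell cycle only CDKN2B, the inhibitor p15, was called, at 5.77 and 13.4 RPKM in N and 4.13 and 9.82 RPKM in B. Of 18 BCL2 family and death receptor genes only BMF, a pro-death member, was called, at 0.726 and 1.68 RPKM in N and 0.741 and 2.17 RPKM in B. The 25 ADP-ribosylation genes, to which PARG belongs, held no call and had medians of 0.02 and -0.02. The farthest of them was PARP2, a DNA damage-activated polymerase that makes the chains PARG removes, at 15.7 and 28.1 RPKM in N and 23.9 and 43.4 RPKM in B. The 13 genes of mitochondrial DNA were lower in H6 by unequal amounts in the 2 experiments, and 12 of 13 were below 0 in both. S100 proteins, small calcium-binding proteins, were below 0 in both experiments in 8 of 10, with S100P the only call (1.24 and 0.490 RPKM in N, 1.31 and 0.357 RPKM in B).

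Genes of prostate identity differed one by one. FOLH1, the prostate-specific membrane antigen PSMA, was at 0.370 RPKM in I4 and 1.30 RPKM in H6 in experiment N and at 0.466 and 1.60 RPKM in B. TMPRSS2, a protease that androgen normally induces in the prostate, was at 0.628 and 1.33 RPKM in N and 0.607 and 1.33 RPKM in B. NDRG1 went the other way, at 92.9 and 48.3 RPKM in N and 77.4 and 42.0 RPKM in B, as did the pioneer factor FOXA1, at 26.4 and 17.8 RPKM in N and 18.5 and 12.1 RPKM in B. FOLH1 was the only call among 13 prostate genes at the level minimum, and the list's median had opposite signs in the experiments, 0.11 in N and -0.08 in B. Of 17 HOX genes only HOXB9 was called, at 1.24 and 2.80 RPKM in N and 1.08 and 3.29 RPKM in B. RUNX3, a lineage transcription factor, was the only call among 39 SOX, KLF and other such factors, at 1.43 and 4.15 RPKM in N and 0.988 and 3.04 RPKM in B.

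Neighbouring genes along some chromosomes differed together. Over chromosomes 1 to 22 and X, median differences ran from -0.24 in N and -0.32 in B on chromosome 13 to 0.21 and 0.19 on chromosome 14. On chromosome 2, 80.8% of 681 genes were below 0 in both experiments, with medians of -0.21 and -0.25. On chromosome 13 the share was 81.2% of 181 genes. On chromosome 21, 73.7% of 114 genes were above 0 in both, with medians of 0.18 and 0.18.

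**Figure D4:**
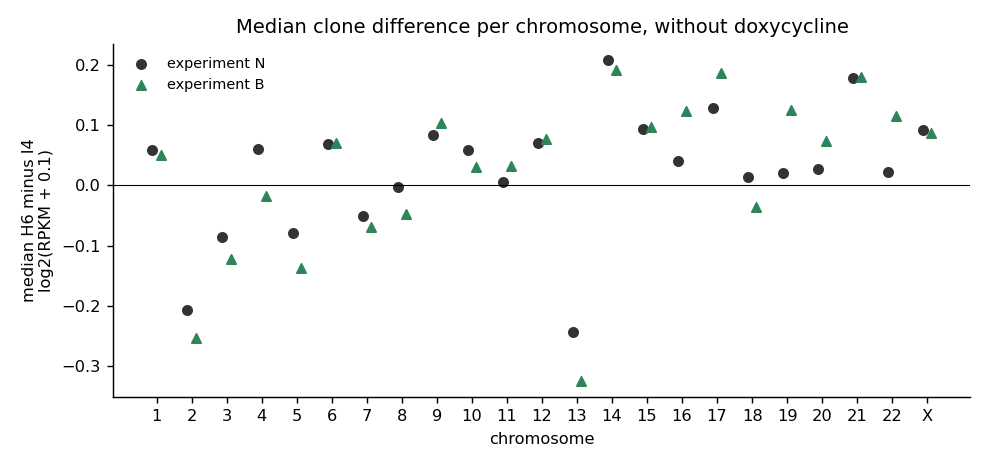
Median difference H6 minus I4 on log2(RPKM + 0.1) over the genes of each chromosome, in experiment N (circles) and B (triangles). Of the chromosomes drawn, which leave out mitochondrial DNA, 2 and 13 lie lowest in both experiments. Chromosome 14 is the highest in both, with chromosomes 17 and 21 next.

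Differences this small in single genes lay in long runs. A run was a stretch of at least 20 genes over which the median of 20 neighbours was at least 0.25 above or below 0. Experiment N held 13 runs, 7 higher and 6 lower in H6, with 638 genes. In experiment B, which had no part in choosing them, all 13 had a median of the same sign, between 0.23 and 0.61 in size. Chosen in B instead, there were 27 runs, of which 12 overlap a run of N in the same direction. The strongest was at the start of chromosome 14 (GRCh38 chr14:20256558-24441834), where 64 genes had a median of 0.57 in N and 0.61 in B, and 61 of the 64 were above 0 in each. It holds MMP14, ABHD4, RNASE4, TEP1 and SLC22A17 of the called genes and also PARP2, and CMA1 lies just past its end. The next run on the chromosome (chr14:30559123-50561126) had the opposite sign: 55 genes had medians of -0.44 and -0.53, and 55 of 55 were below 0 in B. It holds COCH, called lower, at 3.76 and 1.68 RPKM in N and 3.83 and 1.73 RPKM in B. Farther along (chr14:73136418-91417844), 64 genes had medians of 0.32 and 0.31, among them LTBP2.

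On chromosome 13 a run reaching its last genes (chr13:76880166-114337626) held 61 genes with medians of -0.44 in N and -0.52 in B, among them SLITRK6, a neuronal surface protein called lower at 3.82 and 1.27 RPKM in N and 4.50 and 1.18 RPKM in B, and ANKRD10. On chromosome 3 the longest run (chr3:32481312-53347610) held 164 genes with medians of -0.32 and -0.27. It contains TMEM158, lower at 141 and 54.4 RPKM in N and 62.0 and 25.6 RPKM in B, but also ENTPD3, higher at 0.495 and 1.24 RPKM in N and 0.687 and 1.79 RPKM in B. On chromosome 17 a run (chr17:47837692-50090481) of 26 genes with medians of 0.29 and 0.34 holds HOXB9. Runs of N hold 5.96% of the 10699 genes with a known position. They hold 10 of 87 higher genes (11.5%) and 4 of 39 lower ones (10.3%), so most called genes stand outside them. DNA copy number was not measured in this series.

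**Figure D5:**
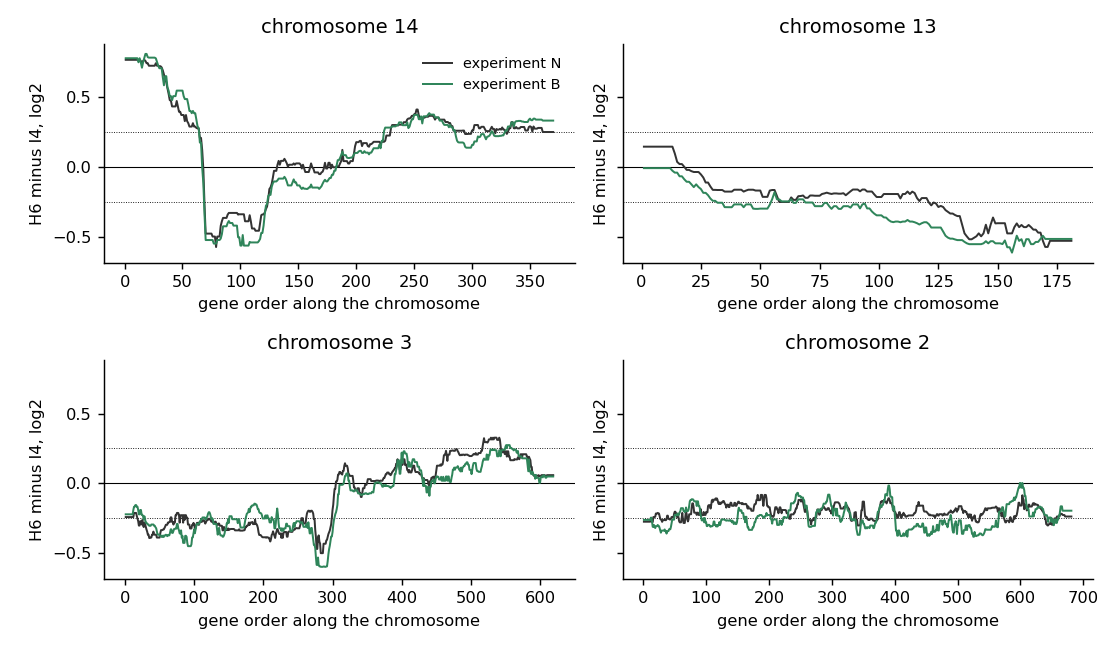
Median over 20 neighbouring genes of H6 minus I4 (log2 scale) against gene order, for chromosomes 14, 13, 3 and 2, in experiments N and B; dotted lines mark 0.25 above and below 0. On chromosome 14 both curves start above 0.5, drop below -0.25 and come back above 0.25, and on chromosome 3 both change from below to about 0 at the same place.

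Called genes also sat beside each other. Of 87 higher genes with a known position, 19 (21.8%) lay within 500 kb of another higher gene, in 10 pairs, while 5.68% of all 10699 placed genes lay that near to a higher gene. Of the 39 lower genes 0 lay so near to another, and of all placed genes 2.53% did, too low a share for that 0 to stand out among 39. The pairs include C1S with C1R, IL1B with IL37, SERPINB3 with SERPINB7, THBS1 with BMF, and RTN4RL2 with SLC43A3. They also include TEP1 with RNASE4, ABHD4 with MMP14, and MMP14 with SLC22A17. These last pairs lie in the first run of chromosome 14, so runs and pairs are not separate observations there.

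The clone difference was also seen in the wells that received 500 ng/ml doxycycline, which are other cultures of the same clones. There H6 was at least 2-fold higher in both experiments in 113 genes (1.05%) and lower in 47 (0.437%). Of the 89 genes higher without doxycycline, 68 were 2-fold higher with it and 89 of 89 kept their sign. Of the 39 lower genes, 29 were 2-fold lower with it and 38 kept their sign, the exception being AC011511.4. IL1B differed by 3.25 in N and 3.47 in B with doxycycline, and SHH by -4.48 and -3.93. The difference in CXCL5 was larger with doxycycline, at 2.17 and 1.88, and that in BMP2 smaller, at -0.60 and -0.71. Run medians were also close, for example 0.60 and 0.66 with doxycycline for the first run of chromosome 14.

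Several called genes also responded to doxycycline. In the authors' deposited table, 4.92% of genes had a q-value under 0.05 and the same direction in all 4 comparisons. Among the genes higher in H6, 11 rose and 15 fell with doxycycline in all 4 comparisons, of 88 tested in all, and among the 39 lower genes 0 rose and 9 fell. Both comparisons use the untreated groups, so the counts are given side by side only. In the authors' deposited table CXCL5 of experiment N fell 9.63-fold in I4 cells and 4.65-fold in H6 cells, and that of experiment B fell 9.23-fold and 4.97-fold. IL1B fell 5.34-fold and 3.30-fold in N and 6.61-fold and 3.64-fold in B, in the authors' deposited table. BMP2, the lower gene with the largest folds there, fell 7.59-fold and 3.16-fold in N and 8.02-fold and 3.23-fold in B in the authors' deposited table. CREB3L1 rose 1.89-fold and 2.01-fold in N and 2.07-fold and 1.85-fold in B, again in the authors' deposited table.

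The genes beyond the 20 largest on each side differed less. The smaller of the 2 differences ranged from 1.01 to 1.70 over the other 69 higher genes, and from -1.02 to -1.27 over the other 19 lower genes. They include IGFBP3, which binds insulin-like growth factors, at 56.9 and 138 RPKM in N and 56.7 and 133 RPKM in B. EEF1A2, a translation elongation factor of nerve and muscle, was at 54.8 and 130 RPKM in N and 33.6 and 89.3 RPKM in B. SULF2, which trims sulfate from heparan sulfate, was at 89.4 and 35.4 RPKM in N and 84.7 and 37.0 RPKM in B. FERMT1, an integrin activator of epithelia, was at 57.2 and 27.4 RPKM in N and 64.6 and 30.8 RPKM in B. Of all calls, 59 higher and 29 lower genes belong to none of the 52 lists.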

How the data were processed

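Poly(A)-selected RNA was sequenced, per the labels' protocols, and the submitters' processing notes name hg38 as the genome build. No source used here gives the aligner, counting program or test. The authors deposited 1 table of 4 comparisons. The level that the authors deposited is the higher group mean, on a scale read from the values as RPKM. Its signed fold change and q-value (adjusted p) are the authors' own. The untreated mean is the level where the deposited fold is negative and the level divided by the fold otherwise. It was read directly in all 4 comparisons for 2648 genes. The deposited fold is finite where a mean is 0, so it may not be a plain ratio; the median clone difference within classes of fold sign ran from -0.01 to 0.09.

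Differences were computed in Python 3.11.15 (pandas 2.3.3, NumPy 2.4.6) and checked on simulated data. The simulated folds were plain ratios and the lowest levels were left out. That check therefore covers the calculation only, and not whether the deposited folds are plain ratios. Genes named are PARG, the 20 largest smaller-of-both differences in each direction, up to 4 called members of each of 52 lists, called genes of each run, and markers; the closing genes, the uncalled list members and those beside the edge were chosen after their values were seen. Some genes that this rule takes are not reported here. Members and lists were chosen with earlier results of these data known. Names matched GENCODE release 29 (GRCh38) in 21376 of 21463 rows (99.6%); 27 rows carry dates for names and are not named. Alternatives were other pseudocounts, levels, folds and centring. A comparison of promoter composition was void, since 69.7% of higher and 66.7% of lower genes had a promoter sequence, under the 80% required. RefSeq promoters are those of GRCh38.p14.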

Additional observations from a re-analysis of the deposited data

Results flagged for a closer look

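One gene was past 2-fold in opposite directions in the 2 experiments. AL035078.4, a row named by its clone, had a log2 difference H6 minus I4 of -1.62 in N and 1.20 in B. The gap between the experiments was not tested, since each experiment has 1 mean per group. Of 161 genes past 2-fold in experiment N, 3 had the opposite sign in B, and of 168 past 2-fold in B, 3 had the opposite sign in N.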

How the results depend on the processing

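The counts of 89 higher and 39 lower genes became 100 and 44 with no pseudocount, 82 and 36 with a minimum of 1 RPKM on the untreated means, 84 and 44 after centring each experiment on its median, 107 and 54 in experiment N alone and 117 and 51 in experiment B alone. They moved by more than 1.5 times to 44 and 19 with a pseudocount of 1 RPKM, to 33 and 11 with a minimum of 5 RPKM and to 170 and 111 with no minimum. They were 323 and 174 at 1.5-fold, 12 and 7 at 4-fold, and 32 and 17 over the 2648 genes whose untreated mean was deposited directly, which are fewer genes. The correlation across genes was 0.87, 0.86 at 5 RPKM and 0.87 with a pseudocount of 1 RPKM. Of the alternatives run on 70 gene values, 247 moved by less than the spread between the experiments and 100 by more. The other 2 reversed the mean of AL035078.4, whose experiments differ in sign: it was -0.21, and became 0.36 with a pseudocount of 1 RPKM and 1.20 in experiment B alone. Taking experiment N or B alone cannot move a gene's mean by more than that spread. Those alternatives therefore fall among the 247 by construction, unless the sign reverses, and the 247 overstates how stable the values are. Runs chosen in experiment B and counts of levels that do not overlap were added after seeing the data. Leaving out a library could not be done on group means. No paired analysis was possible because the table holds no value per library. Passage, sequencing provider and library kit differ together between the experiments and cannot be told apart; within each experiment both clones share them. Depth may differ between the clones in experiment B. In libraries that keep both strands, 30 higher and 7 lower genes overlap an exon of a gene on the other strand. The share over all genes compared was not computed, so these counts mark where reads may be mixed and are no trait of the called genes.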
